A study of Homo sapiens with 4 samples.

Results

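The genes described here are 31 integrin and focal adhesion genes, taken by symbol from the 26255 gene symbols listed for each library. They comprise 7 integrin alpha subunits, 6 beta subunits, 4 talins and kindlins, 3 genes of the ILK, PINCH and parvin complex, 5 kinases and signalling scaffolds, and 6 actin linkers and LIM proteins. Their levels were compared between PSN-1 and MIA PaCa-2, which are 2 human pancreatic cancer cell lines, and between cells given a miR-4800-3p mimic and cells given a scramble oligonucleotide.

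The study asked which mRNAs miR-4800-3p acts on. A mimic is a synthetic RNA that adds the microRNA to the cell from outside, and the scramble is an oligonucleotide given as the negative control. There were 4 RNA-seq libraries, 1 in each group: PSN-1 with the mimic, PSN-1 with the scramble, MIA PaCa-2 with the mimic and MIA PaCa-2 with the scramble. All groups share transfection with an oligonucleotide, each line is a single established culture, and the labels used here give no dose, time after transfection or untransfected control.

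Integrins are cell surface receptors made of 1 alpha and 1 beta subunit, and the pairing decides which matrix protein a cell can hold. Talins and kindlins bind the tails of beta subunits inside the cell and switch the receptor on. ILK, parvins, vinculin and alpha-actinins then tie the receptor to actin, while focal adhesion kinase and SRC signal from the same site. In epithelial cells, alpha 6 with beta 4 forms the laminin receptor of hemidesmosomes, and in cancers of the pancreas integrins are studied for their part in invasion and survival.

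The sequences that bear on the mimic come first, because they show which of these genes carry a match to it. The mature microRNA lies on chromosome 4 at 2250091 to 2250109, minus strand (RefSeq, GRCh38.p14), and is 19 bases long. Capitals mark its seed, bases 2 to 8, which base-pairs with target mRNAs.
hsa-miR-4800-3p: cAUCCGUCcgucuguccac
A full seed match in an mRNA reads GACGGAT, a match to bases 2 to 7 followed by an A reads ACGGATA, and the shared core reads ACGGAT. Only the mRNA strand was searched, and each gene was represented by its longest 3′ UTR (GENCODE 29, GRCh38). In the lines below the capitals mark the matched letters.
PARVA: tgagggagaaGACGGATccgatcgcagg
TNS3: agggcagtgccACGGATAatgtgtgcca
ACTN4: tttattaacttACGGATttattatataa
ITGA3: gctggtgcatcACGGATggtgcatgggc
The PARVA match has its core at 12532847 to 12532852 on chromosome 11, plus strand, at base 4922 of a 3′ UTR of 7431 bases. The TNS3 match has its core at 47278178 to 47278183 on chromosome 7, minus strand, at base 1977 of 5006. The cores in ACTN4 (chromosome 19, 38730219 to 38730224) and ITGA3 (chromosome 17, 50089541 to 50089546) are on the plus strand and have neither extension.

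A match of 7 letters or more was present in the 3′ UTR of 2 of the 31 genes, or 6.45%, against 282 of the 11171 genes that were searched and averaged at least 1 FPKM, or 2.52%. The 6-letter core was present in 6 of the 31 genes, ITGA1 and TLN2 being the others, or 19.4%, against 5.86%. The 3′ UTRs of the 31 genes were longer, with a median of 1875 bases against 1363, and longer sequences hold more matches of any kind. No coding sequence of the 31 held the 7-letter match, against 4.22% of the measured genes, and VCL held the 6-letter core in its coding sequence. A match is a description of the letters and not a sign that the site is bound.

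Levels are the authors' FPKM, which divides fragments by transcript length and by library size, so genes can be set side by side within a library. The spacing of the lowest values gave an estimate of 12.6 to 15.9 fragments per kilobase at 1 FPKM, and 15699 to 17294 genes were listed above 0 in each library. The lines are labelled epithelial. KRT8, an epithelial keratin, was at 537 and 665 FPKM in PSN-1 with mimic and scramble and at 737 and 923 FPKM in MIA PaCa-2, but CDH1, which encodes E-cadherin, was at 0.720 and 1.51 FPKM in PSN-1 and at 0.335 and 0.170 FPKM in MIA PaCa-2. EPCAM, an epithelial adhesion gene, was at 28.4 and 24.1 FPKM in PSN-1, against 0.139 and 0.104 FPKM in MIA PaCa-2 (adjusted p = 0.000101 with limma). It reached the mean level required for that test only through PSN-1, so its direction was fixed. Of the 7 epithelial markers, 5 and 6 reached 1 FPKM in PSN-1 and 4 and 3 in MIA PaCa-2. The mesenchymal filament gene VIM was at 1235 and 1144 FPKM in PSN-1 and at 4401 and 4111 FPKM in MIA PaCa-2. SNAI2, a mesenchymal transcription factor gene, went the other way, with 10.1 and 5.67 FPKM in PSN-1, against 0.110 and 0.0412 FPKM in MIA PaCa-2. Of the 5 mesenchymal markers, 3 reached 1 FPKM in the PSN-1 libraries and 2 in those of MIA PaCa-2, CDH2 and TWIST1 in none. Leukocyte markers summed to at most 5.74 FPKM in a library and endothelial markers to at most 1.73 FPKM.

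Among the alpha subunits, PSN-1 had 5 genes at 5 FPKM or more in each of its libraries and MIA PaCa-2 had 4. ITGA3, a laminin receptor subunit, was the highest alpha subunit in every library, with 181 FPKM in PSN-1 with mimic and 163 with scramble, against 104 FPKM in MIA PaCa-2 with mimic and 90.0 with scramble. It took 43.1% and 40.8% of the summed alpha subunit FPKM in PSN-1 and 71.5% and 70.7% in MIA PaCa-2. ITGA3 therefore dominated the alpha subunits of MIA PaCa-2 more than those of PSN-1, although its level was higher in PSN-1.

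ITGA6, the alpha subunit of the hemidesmosome receptor, had 77.9 and 77.8 FPKM in PSN-1 with mimic and scramble, against 7.61 and 5.21 FPKM in MIA PaCa-2. ITGA5, which makes the fibronectin receptor with beta 1, had 60.8 and 62.1 FPKM in PSN-1, against 23.9 and 23.6 FPKM in MIA PaCa-2. ITGAV, whose receptors bind vitronectin and fibronectin, had 36.6 and 36.1 FPKM in PSN-1, against 9.92 and 8.42 FPKM in MIA PaCa-2. All 3 were higher in both PSN-1 libraries than in either MIA PaCa-2 library, and in PSN-1 the mimic and scramble values lay close together.

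ITGA2, a collagen receptor subunit, had 62.0 and 59.6 FPKM in PSN-1 with mimic and scramble, against 0.00932 and 0.0209 FPKM in MIA PaCa-2. Those MIA PaCa-2 values stand for about 1.04 and 2.09 fragments. ITGA1, the other collagen receptor subunit on the list, was low in PSN-1 at 1.53 and 1.48 FPKM, and in MIA PaCa-2 it was listed at 0 with mimic and at 0.0171 FPKM with scramble. ITGA4, best known from leukocytes, was listed at 0 in 3 libraries and at 0.0135 FPKM in PSN-1 with scramble. The collagen receptor subunits on the list were thus listed at 0 or at the level of 1 or 2 fragments in MIA PaCa-2. ITGA10, a collagen receptor subunit outside the list, had reads in both lines and is given below.

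The beta subunits had 3 genes at 5 FPKM or more in every library, with ITGB1 highest in each. ITGB1, which pairs with most alpha subunits, had 227 and 213 FPKM in PSN-1 with mimic and scramble, against 438 and 291 FPKM in MIA PaCa-2. It took 71.3% and 64.9% of the summed beta subunit FPKM in PSN-1 and 85.0% and 81.1% in MIA PaCa-2. Both MIA PaCa-2 libraries were above both PSN-1 libraries for ITGB1, and the MIA PaCa-2 pair was itself spread wide.

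The second place differed between the lines. In PSN-1 it was held by ITGB5, a partner of alpha V in vitronectin binding, with 71.8 FPKM with mimic and 98.6 with scramble, against 9.72 and 7.17 FPKM in MIA PaCa-2. In MIA PaCa-2 it was held by ITGB4, the beta subunit of hemidesmosomes, with 66.7 FPKM with mimic and 60.4 with scramble there, against 13.7 and 11.6 FPKM in PSN-1. ITGB5 thus took 22.5% and 30.1% of the beta sum in PSN-1, and ITGB4 took 12.9% and 16.8% in MIA PaCa-2.

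The other beta subunits were low. ITGB3, which with alpha V is a vitronectin receptor, had 3.23 and 3.17 FPKM in PSN-1 with mimic and scramble, against 0.120 and 0.101 FPKM in MIA PaCa-2. ITGB8, which with alpha V activates TGF-beta, had 2.51 and 1.66 FPKM in PSN-1, against 0.311 and 0.128 FPKM in MIA PaCa-2. ITGB6, an epithelial partner of alpha V, stayed under 1 FPKM throughout, at 0.134 and 0.188 FPKM in PSN-1 and 0.353 and 0.274 FPKM in MIA PaCa-2. The annotated ITGB3 transcript shares 56.7% of its bases with exons of another gene on the same strand, and that of ITGB6 shares 20.7%. Neither of the other genes is listed in any library. The annotation behind the FPKM is not given, so both levels are uncertain on this point.

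**Figure D1:**
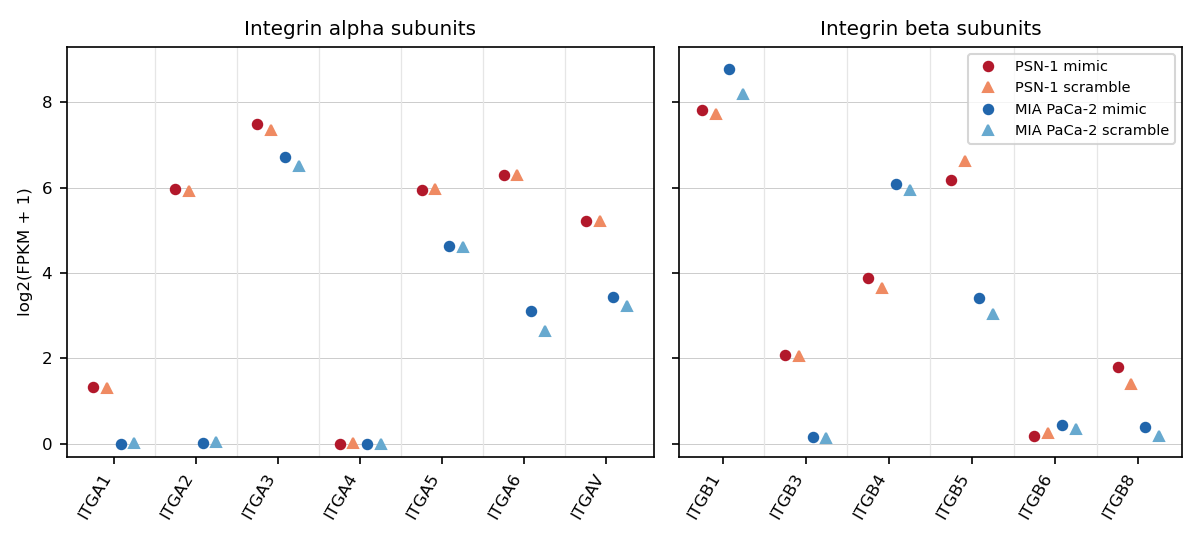
Level of the 7 alpha and 6 beta integrin subunits in each of the 4 libraries, as log2(FPKM + 1), with 1 point per library and no error bars because each group is 1 library. ITGA2 is high in PSN-1, at 62.0 and 59.6 FPKM, and lies on the zero line in MIA PaCa-2, while ITGB1 and ITGB4 are higher in both MIA PaCa-2 libraries.

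The hemidesmosome partners ITGA6 and ITGB4 were unequal in level, in opposite directions in the 2 lines. ITGA6 exceeded ITGB4 by 5.70 times in PSN-1 with mimic and 6.71 times with scramble, whereas ITGB4 exceeded ITGA6 by 8.77 times in MIA PaCa-2 with mimic and 11.6 times with scramble. The summed alpha subunits were 1.85 and 1.88 times ITGB1 in PSN-1, against 0.332 and 0.437 times in MIA PaCa-2. ITGB5 was 1.96 and 2.73 times ITGAV in PSN-1 and 0.980 and 0.851 times in MIA PaCa-2. These are ratios of mRNA levels, and protein was not measured.

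**Figure D2:**
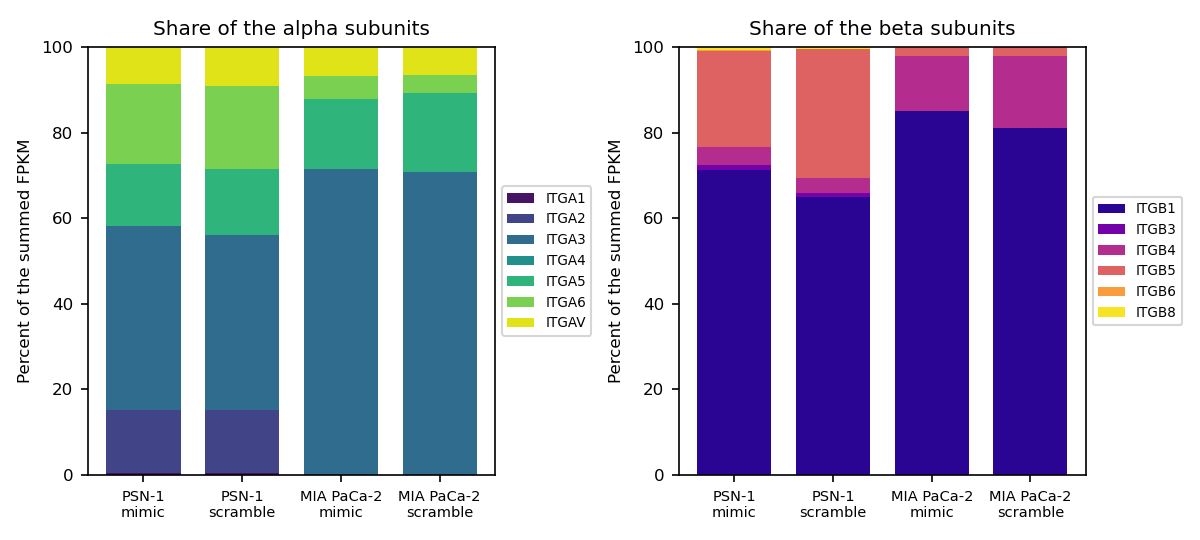
Share of the summed FPKM of the 7 alpha subunits and of the 6 beta subunits taken by each subunit in each library, in percent, as stacked bars that reach 100%. PSN-1 spreads its alpha subunits over 5 genes with ITGA3 at 43.1% and 40.8%, and MIA PaCa-2 has ITGA3 at 71.5% and 70.7%.

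The difference between the lines was tested with limma on log2(FPKM + 1) over 12423 genes, with the oligonucleotide as a term and p-values adjusted by Benjamini-Hochberg. The 2 libraries of a line differ in their oligonucleotide and come from cultures that the labels do not describe as replicates. With the oligonucleotide in the fit, the spread behind the p-values is the disagreement of the mimic-scramble difference between the lines. It is drawn toward that of genes of like level, and it does not measure replicate cultures. The p-values are about these 4 libraries only. Where a call is said below to be lost without a library, that fit had line as its only term. Of all genes tested, 56.4% passed an adjusted p of 0.05. Of the 28 integrin and adhesion genes tested, 23 passed, or 82.1%, with 15 higher and 8 lower in PSN-1, directions that 29.2% and 27.3% of all genes took. When a difference of at least 2-fold was also asked for, 10 of the 28 passed, or 35.7%, against 28.5% of all genes. The median log2 difference of the 28 was 0.67, against 0.01 over all genes. ITGA2, ITGB3, ITGB8 and TES are in these counts and in this median. They reached the mean level required for the test only through PSN-1, so their direction was fixed. The counts and the median without them were not worked out. In a bulk library, fewer cells of a kind and less RNA per cell cannot be told apart. Of the 4 markers of fibroblasts and stellate cells, LUM and PDGFRB were higher in PSN-1. ACTA2 was not, with 0.209 and 0.132 FPKM in PSN-1, against 0.271 and 0.152 FPKM in MIA PaCa-2. The 4 summed to 34.3 and 41.0 FPKM in PSN-1, with LUM and PDGFRB above 1 FPKM and DCN and ACTA2 below, and to 0.322 and 0.281 FPKM in MIA PaCa-2. Their part in the results was not tested.

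All 5 tested alpha subunits passed as higher in PSN-1. ITGA2, and among the genes below ITGB3, ITGB8 and TES, reached the required mean of 1 FPKM over the 4 libraries only through PSN-1, so they could enter the test only as higher there. On the log2(FPKM + 1) scale the difference was 5.93 ± 0.15 for ITGA2 (SE, adjusted p = 7.28e-05 with limma), a value that depends on the pseudocount because MIA PaCa-2 had about 1 to 2 fragments. ITGA6 followed with 3.43 ± 0.16 (adjusted p = 0.000162 with limma) and a ratio of mean FPKM of 12.1. ITGAV had 1.88 ± 0.14 (adjusted p = 0.000483 with limma) with a ratio of 3.96, and ITGA5 had 1.33 ± 0.12 (adjusted p = 0.000832 with limma) with a ratio of 2.59. ITGA3 differed least, by 0.82 ± 0.09 (adjusted p = 0.00181 with limma) or 1.77 times in mean FPKM, and its call was lost without either PSN-1 library. ITGA1 and ITGA4 averaged under 1 FPKM and were not tested.

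The 5 tested beta subunits passed too, in both directions. ITGB5 was higher in PSN-1 by 3.19 ± 0.23 (adjusted p = 0.000434 with limma), a ratio of mean FPKM of 10.1. ITGB4 had a log2 difference of -2.25 ± 0.12 (adjusted p = 0.000233 with limma), which is 5.03 times more in MIA PaCa-2. ITGB3 (1.92) and ITGB8 (1.33) were higher in PSN-1 (adjusted p = 0.00131 and 0.00466 with limma), and ITGB1 (-0.70 ± 0.14) was lower (adjusted p = 0.0094 with limma). The ITGB1 call was lost without either PSN-1 library or without MIA PaCa-2 with mimic.

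**Figure D3:**
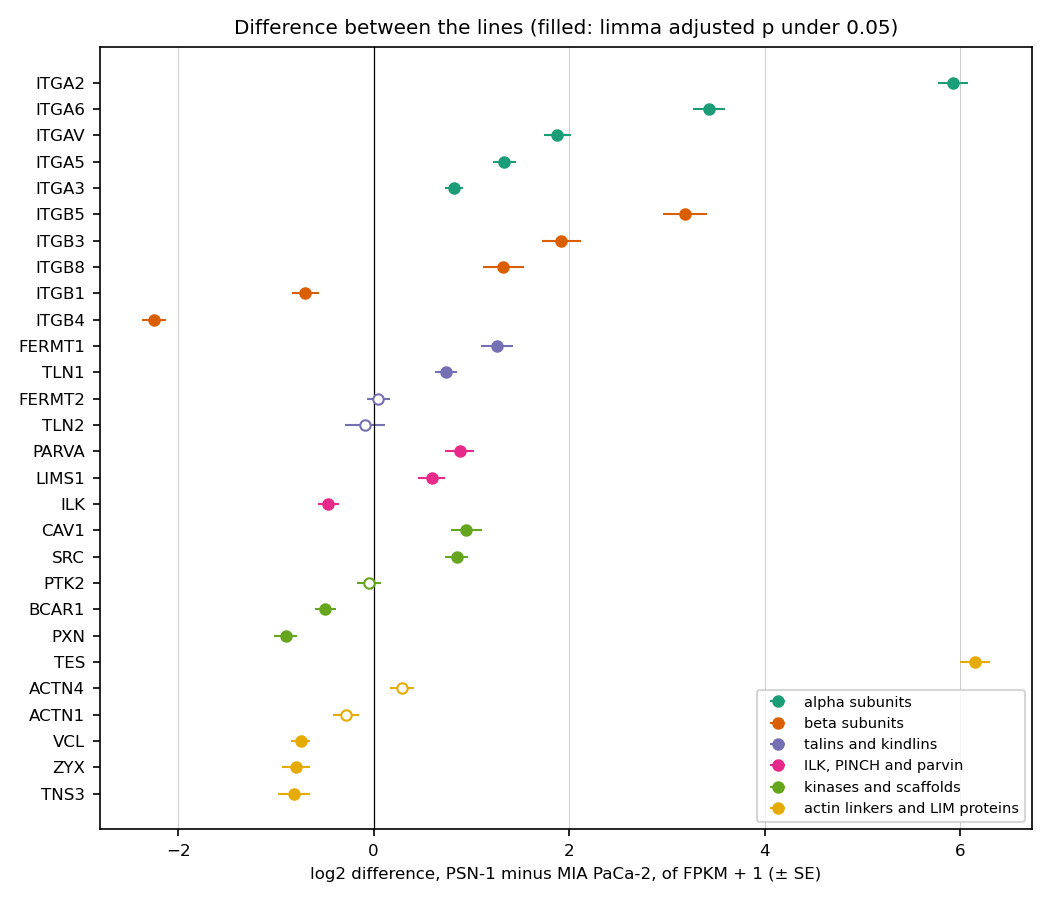
Difference between PSN-1 and MIA PaCa-2 in log2(FPKM + 1) for the 28 tested genes by role (colour), with filled points for an adjusted p under 0.05, bars of 1 standard error from the limma fit, and positive values for genes higher in PSN-1. TES at 6.15 and ITGA2 at 5.93 stand far out, and ITGB4 at -2.25 is the lowest.

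Inside the cell, the largest difference was that of TES, which encodes testin, a LIM protein of focal adhesions. TES had 73.5 and 68.8 FPKM in PSN-1 with mimic and scramble, whereas in MIA PaCa-2 it was listed at 0 with mimic and at 0.0326 FPKM with scramble, which is about 1.15 fragments. The fitted difference was 6.15 ± 0.15 (SE, adjusted p = 7.28e-05 with limma) and depends on the pseudocount. TES and ITGA2 were thus above 50 FPKM in both PSN-1 libraries and were at the level of 1 or 2 fragments, or listed at 0, in MIA PaCa-2.

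The promoters of these 2 genes are shown because they showed the 2 largest differences between the lines. Each window runs from 250 bases before to 50 after an annotated start (RefSeq, GRCh38.p14, plus strand) and capitals mark CG pairs. TES is at chr7:116210289-116210588 and ITGA2 at chr5:52989102-52989401.
TES promoter: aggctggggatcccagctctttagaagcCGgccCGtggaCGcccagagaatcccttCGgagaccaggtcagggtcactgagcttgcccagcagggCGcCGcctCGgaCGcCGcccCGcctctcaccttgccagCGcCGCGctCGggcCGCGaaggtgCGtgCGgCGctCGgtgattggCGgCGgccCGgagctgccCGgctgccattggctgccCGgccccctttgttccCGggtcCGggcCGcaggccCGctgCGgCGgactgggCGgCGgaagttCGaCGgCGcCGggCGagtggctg
ITGA2 promoter: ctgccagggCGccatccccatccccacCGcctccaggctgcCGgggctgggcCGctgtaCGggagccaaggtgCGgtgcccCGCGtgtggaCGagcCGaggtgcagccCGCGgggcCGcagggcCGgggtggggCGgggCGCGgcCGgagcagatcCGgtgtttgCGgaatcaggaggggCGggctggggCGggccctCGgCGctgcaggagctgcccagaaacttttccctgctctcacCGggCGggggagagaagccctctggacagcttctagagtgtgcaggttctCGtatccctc
A second annotated TES window, chr7:116222703-116223002, held 4 CG pairs, at percentile 24.5, and is not shown. The TES window shown held 38 CG pairs, at percentile 90.1 of the 35116 RefSeq promoters of the same length, and the ITGA2 window held 27, at percentile 71.8. The motif GGGCGG, searched on both strands, occurred 2 times in the TES window and 4 times in the ITGA2 window. Over all 46 promoters of the 24 genes with an entry, 60.9% held GGGCGG against 45.0% of all promoters, and the median was 21.5 CG pairs against 14. TGANTCA, searched once because it reads the same on both strands, was in 8.70% against 7.71%. DNA methylation was not measured.

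Genes next to TES and ITGA2 were read as well, a choice made after their values were seen. CAV2, which starts 28.6 kb from TES, had 8.94 and 9.19 FPKM in PSN-1 and 10.8 and 6.78 FPKM in MIA PaCa-2. MOCS2, 0.9 kb from ITGA2, had 16.0 and 14.3 FPKM in PSN-1 and 8.87 and 9.74 FPKM in MIA PaCa-2. On the other side of ITGA2, at 30.1 kb, lies ITGA1, which was at or near 0 in MIA PaCa-2 as given above. TFEC, 50.6 kb from TES, was listed at 0 in all 4 libraries. PELO, whose annotated span lies within that of ITGA1, had 7.67 and 10.3 FPKM in PSN-1 and 7.93 and 8.27 FPKM in MIA PaCa-2. Both TES and ITGA2 thus had neighbours with reads in all 4 libraries. Of the neighbours named, only ITGA1 was near 0 in MIA PaCa-2 and above 1 FPKM in PSN-1, while TFEC was at 0 in both lines.

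The remaining actin linkers were expressed in both lines, and 3 of them were lower in PSN-1. ZYX, encoding the LIM protein zyxin, had 128 and 137 FPKM in PSN-1 with mimic and scramble, against 264 and 200 FPKM in MIA PaCa-2. VCL, encoding vinculin, which links talin to actin, had 96.0 and 122 FPKM in PSN-1, against 170 and 195 FPKM in MIA PaCa-2. TNS3, a tensin that binds beta subunit tails and actin, had 17.9 and 31.4 FPKM in PSN-1, against 38.4 and 46.8 FPKM in MIA PaCa-2. The PSN-1 and MIA PaCa-2 values did not overlap for these genes, whose log2 differences were -0.79 (adjusted p = 0.00752 with limma) for ZYX, -0.75 (adjusted p = 0.00262) for VCL and -0.81 (adjusted p = 0.0109) for TNS3. The ZYX call was lost without either PSN-1 library, and those of VCL and TNS3 were lost without any 1 of the 4. The alpha-actinins ACTN1 and ACTN4, which cross-link actin, did not pass, with adjusted p = 0.132 and 0.0955 with limma.

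Of the talins and kindlins, TLN1 and FERMT1 passed. TLN1, encoding the main talin, had 69.3 and 66.1 FPKM in PSN-1 with mimic and scramble, against 40.3 and 40.0 FPKM in MIA PaCa-2, a log2 difference of 0.74 ± 0.11 (adjusted p = 0.00423 with limma). That call was lost without the PSN-1 mimic library. FERMT1, the epithelial kindlin, had 10.7 and 16.8 FPKM in PSN-1, against 4.46 and 5.62 FPKM in MIA PaCa-2, a difference of 1.26 ± 0.16 (adjusted p = 0.00266 with limma) that lost its call without any 1 of the 4 libraries. FERMT2, the widely expressed kindlin, had 58.8 and 48.2 FPKM in PSN-1 and 53.4 and 49.5 FPKM in MIA PaCa-2, and the lines overlapped (difference 0.05 ± 0.12, adjusted p = 0.736 with limma). TLN2, the minor talin, was lowest of its role at 1.15 to 1.87 FPKM over the 4 libraries.

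The 3 genes of the complex that couples beta subunits to actin passed. PARVA, encoding alpha-parvin, had 13.5 and 11.4 FPKM in PSN-1 with mimic and scramble, against 6.75 and 5.85 FPKM in MIA PaCa-2, a log2 difference of 0.88 (adjusted p = 0.00582 with limma). LIMS1, encoding the adaptor PINCH, had 20.1 and 20.9 FPKM in PSN-1, against 13.5 and 13.0 FPKM in MIA PaCa-2, a difference of 0.59 (adjusted p = 0.0163 with limma). Integrin-linked kinase, ILK, was lower in PSN-1 with 72.8 and 68.8 FPKM, against 107 and 90.0 FPKM in MIA PaCa-2, a difference of -0.46 (adjusted p = 0.0172 with limma). ILK shares 73.7% of its annotated transcript with exons of TAF10 on the opposite strand, and TAF10 had 83.6 and 76.9 FPKM in PSN-1, against 114 and 103 FPKM in MIA PaCa-2. The strand setting of the counting is not given in the sources used here, so reads of ILK and TAF10 may not be told apart. LIMS1 has near-identical copies, which makes its level uncertain. These calls did not survive every removal of 1 library: PARVA lost its call in 3 of the 4 fits of 3 libraries, ILK in 3 and LIMS1 in 4.

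Of the kinases and scaffolds, PXN and BCAR1 were lower and SRC and CAV1 higher in PSN-1. PXN, encoding the scaffold paxillin, had 93.9 and 88.1 FPKM in PSN-1 with mimic and scramble, against 197 and 148 FPKM in MIA PaCa-2, a log2 difference of -0.90 (adjusted p = 0.00274 with limma). CAV1, the main caveolae protein, had 41.2 and 45.7 FPKM in PSN-1, against 17.8 and 27.1 FPKM in MIA PaCa-2, a difference of 0.95 (adjusted p = 0.00545 with limma). SRC, the tyrosine kinase, had 53.0 and 46.2 FPKM in PSN-1, against 29.1 and 25.0 FPKM in MIA PaCa-2, a difference of 0.85 (adjusted p = 0.00325 with limma). BCAR1, encoding the scaffold p130Cas, differed by -0.49 (adjusted p = 0.0137 with limma). PXN, CAV1 and SRC lost their calls without either PSN-1 library, and BCAR1 without any 1 of the 4. PTK2, which encodes focal adhesion kinase, had 44.2 and 36.2 FPKM in PSN-1 and 43.0 and 39.6 FPKM in MIA PaCa-2. The PTK2 ranges of the lines overlapped, with a difference of -0.04 ± 0.12 (adjusted p = 0.771 with limma).

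**Figure D4:**
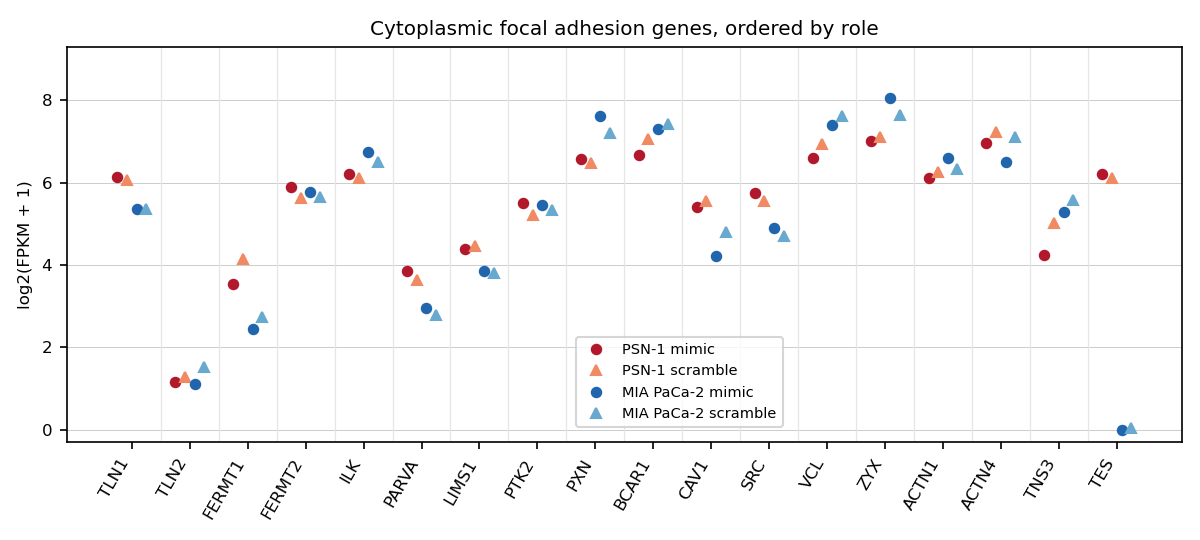
Level of the 18 talins, kindlins, complex genes, kinases, scaffolds, actin linkers and LIM proteins in each of the 4 libraries, as log2(FPKM + 1), with 1 point per library. TLN2 is the lowest gene outside TES at 1.15 to 1.87 FPKM, and TES is at 73.5 and 68.8 FPKM in PSN-1 and on the zero line in MIA PaCa-2.

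Across the 28 tested genes, 9 kept their call in every fit that left out 1 library: ITGA2, ITGA5, ITGA6, ITGAV, ITGB3, ITGB4, ITGB5, ITGB8 and TES. The number called in such fits was 9 to 17 of 28, and the share of all genes called was 19.9% to 38%. Of these 9 genes, 8 are integrin subunits and ITGB4 is the 1 that is lower in PSN-1. Of the others ITGA2, ITGB3, ITGB8 and TES entered only through PSN-1, so their direction was fixed by the filter. Each fit that left out a library also dropped the oligonucleotide term. Its spread was then the mimic-scramble difference of the line that kept both libraries. The share of all genes that kept a call in every such fit was not worked out.

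Integrin genes outside the 31 and matrix genes were read for context. Of 13 other integrin subunits 3 could be tested, and ITGA10 and ITGA11, which encode collagen receptor subunits, were higher in PSN-1. ITGA10 had 15.5 and 15.5 FPKM in PSN-1, against 4.56 and 3.09 FPKM in MIA PaCa-2 (adjusted p = 0.00119 with limma), and ITGA11 had 4.83 and 3.80 FPKM, against 0.0146 and 0 FPKM (adjusted p = 0.000744 with limma). ITGA11 reached the required mean only through PSN-1, so its direction was fixed by the filter. Of 48 other adhesion genes 44 were tested and 26 passed, 13 in each direction, or 59.1%, against 56.4% of all genes. Of the 44, 36 averaged at least 1 FPKM in each line. The 4 with the largest differences were TNS4 (5.58), FLNC (3.21), FYN (2.53) and EVL (2.37), all higher in PSN-1. These 4 averaged under 1 FPKM in MIA PaCa-2, so they could enter the test only as higher in PSN-1.

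Of 30 matrix ligands 25 were tested and 24 passed, 19 higher and 5 lower in PSN-1, or 96.0%, against 56.4% of all genes (29.2% higher and 27.3% lower). Only 9 of the 25 averaged at least 1 FPKM in each line. The rest, with FN1, THBS1, COL5A2 and COL1A2 among them, reached the required mean through 1 line only, so their direction was fixed by the filter. FN1, which encodes fibronectin, the ligand of alpha 5 beta 1, had 353 and 308 FPKM in PSN-1 with mimic and scramble, against 0.0457 and 0.0696 FPKM in MIA PaCa-2 (adjusted p = 6.98e-05 with limma). THBS1, encoding thrombospondin 1, had 52.9 and 85.0 FPKM in PSN-1, against 0.0200 and 0.0335 FPKM in MIA PaCa-2. Collagen genes COL5A2 and COL1A2 went the other way, with 1.04 and 0.763 FPKM of COL5A2 in PSN-1, against 145 and 151 FPKM in MIA PaCa-2, and with COL1A2 at 0.0120 and 0 FPKM in PSN-1, against 59.9 and 76.8 FPKM in MIA PaCa-2. Other collagen genes were higher in PSN-1, among them COL6A1 with 332 and 280 FPKM, against 48.1 and 44.6 FPKM in MIA PaCa-2, and COL3A1 with 36.1 and 45.6 FPKM, against 7.03 and 7.72 FPKM. Collagen genes thus went both ways between the lines.

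The mimic was compared with the scramble within each line on the log2(FPKM + 1) scale, for genes with a mean of 1 FPKM or more in that line. Single libraries allow no test within a line, and 1.5-fold served as the threshold of size. The libraries were made from polyadenylated RNA, so the microRNA itself was not measured.

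In PSN-1, 29 of the 31 genes could be compared, and 2 were past 1.5-fold, both lower with the mimic, or 6.90%. Of all genes 7.04% were past 1.5-fold and 3.87% were lower by that much. The share in either direction was that of the background. TNS3 had 17.9 FPKM with mimic and 31.4 with scramble, a log2 difference of -0.78 with a counting error of 0.04. FERMT1 had 10.7 FPKM with mimic and 16.8 with scramble, a difference of -0.60 with a counting error of 0.07. The median difference over the 29 genes was 0.02, against -0.02 over all genes. No gene of the 29 was past 2-fold, against 1.63% of all genes.

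In MIA PaCa-2, 24 of the 31 genes could be compared, and 2 were past 1.5-fold, or 8.33%, 1 higher and 1 lower. Of all genes 9.49% were past it, 5.43% higher and 4.06% lower, so here too the share was no more than the background. ITGB1 had 438 FPKM with mimic and 291 with scramble, a log2 difference of 0.59 with a counting error of 0.015, just past the threshold of 0.585. ITGB1 did not pass when FPKM was rescaled to TPM (0.54). ACTN4 had 89.8 FPKM with mimic and 138 with scramble, a difference of -0.61 with a counting error of 0.024. CAV1, with 17.8 FPKM with mimic and 27.1 with scramble, lay just under the threshold at -0.58. The median difference over the 24 genes was 0.13, against 0.01 over all genes, and none of the 24 was past 2-fold, against 2.12% of all genes.

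The alpha subunits differed little between mimic and scramble in PSN-1, and more in MIA PaCa-2. In PSN-1 their log2 differences ran from -0.03 for ITGA5 to 0.14 for ITGA3. In MIA PaCa-2 they ran from 0.02 for ITGA5 to 0.47 for ITGA6, whose counting error there was 0.095. The 4 compared in MIA PaCa-2 were all higher with the mimic, with a median of 0.21, against 0.01 over all genes. Of the beta subunits, ITGB5 had 71.8 FPKM with mimic and 98.6 with scramble in PSN-1, and 9.72 FPKM with mimic and 7.17 with scramble in MIA PaCa-2. It was lower with the mimic in PSN-1 and higher with it in MIA PaCa-2.

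The 2 lines gave the only repeat of the treatment. Of the 24 genes compared in both, 12 were higher with the mimic in both lines, 7 were lower in both and 5 went in opposite directions, and 0 were past 1.5-fold in the same direction in both. Over all 10678 genes compared in both lines, 28.1% were higher in both and 27.6% lower in both. Of these 10678, 80 were past 1.5-fold as higher in both and 65 as lower in both. Such genes were rare in the whole set, so a count of 0 among 24 says little. The 12 were ITGA3, ITGA6, ITGAV, ITGB1, ITGB4, PTK2, PXN, TLN1, ILK, FERMT2, PARVA and SRC. The 7 were VCL, TLN2, BCAR1, FERMT1, ACTN4, TNS3 and CAV1. Many of these differences were small, and PTK2 and SRC, for example, lay between 0.11 and 0.28 log2 in the 2 lines.

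With limma on the 4 libraries and the line as a block, 0 of the 24 genes passed an adjusted p of 0.05 for mimic against scramble, and of all genes 0.0656% did. At an unadjusted p under 0.05 there were 5 of the 24, against 9.93% of all genes (5% higher and 4.93% lower), and these were ACTN4, TNS3, VCL and FERMT1, lower with the mimic, and ITGB1, higher with it. ACTN4 had the lowest p of the 24, with a mean log2 difference of -0.44 (unadjusted p = 0.0114, adjusted p = 0.345 with limma). TNS3 had a mean difference of -0.53 ± 0.16 (SE, adjusted p = 0.402 with limma) and VCL one of -0.27 (adjusted p = 0.472 with limma). For FERMT1 it was -0.44 (adjusted p = 0.476 with limma), and for ITGB1 0.34 (adjusted p = 0.480 with limma). Each of these 5 differed in the same direction in both lines, and none passed the correction. The spread in this fit is the disagreement of the mimic-scramble difference between the lines, drawn toward that of genes of like level. A low p therefore favours genes whose differences agree between the lines, so the shared direction of these 5 is not separate evidence.

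**Figure D5:**
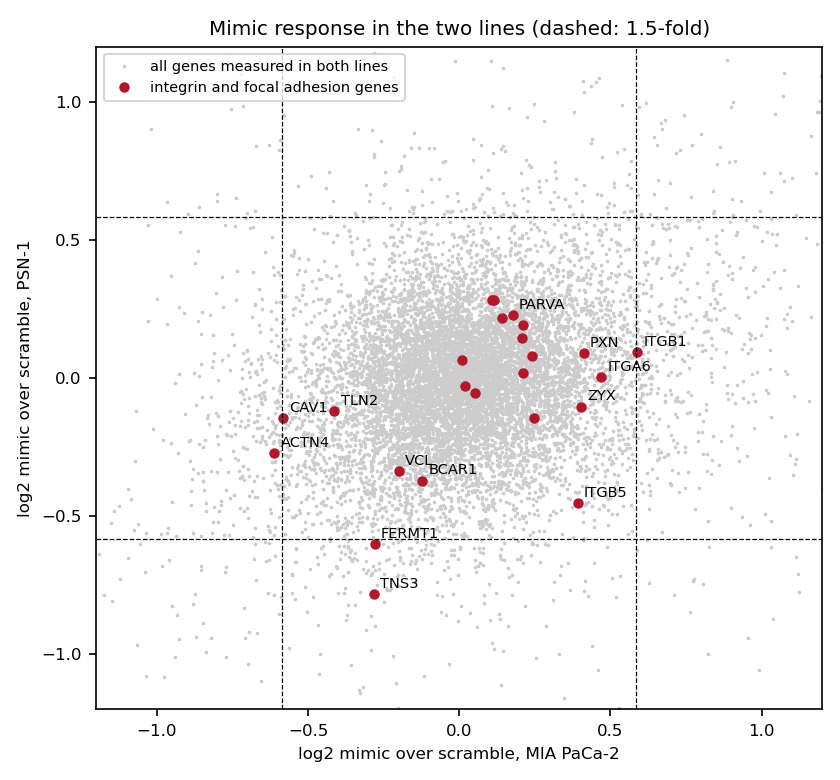
Mimic over scramble in log2(FPKM + 1), with PSN-1 on the vertical axis and MIA PaCa-2 on the horizontal axis, for the 24 adhesion genes compared in both lines over all 10678 genes in grey, of which 133 lie outside the axes. Dashed lines mark 1.5-fold, which 80 of all genes are past as higher on both axes and 65 as lower on both. TNS3 lies at -0.78 in PSN-1 and -0.28 in MIA PaCa-2, ACTN4 at -0.27 in PSN-1 and -0.61 in MIA PaCa-2, and no adhesion gene is past 1.5-fold on both axes.

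The letters of the seed match can be set beside these values. TNS3, with the ACGGATA match shown above, was lower with the mimic by 0.78 log2 in PSN-1 and by 0.28 in MIA PaCa-2. PARVA, with the full GACGGAT match, had 13.5 FPKM with mimic and 11.4 with scramble in PSN-1 and 6.75 with mimic and 5.85 with scramble in MIA PaCa-2, and was higher with the mimic in both lines. Among the genes with the 6-letter core, ACTN4 and TLN2 had lower values with the mimic in each line and ITGA3 had higher ones. The genes with a match thus went both ways. Part of ACTN4, 17.5% of its annotated transcript, overlaps exons of CAPN12 on the opposite strand, which was at 5.52 to 7.76 FPKM.

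Past 1.5-fold were 7.04% of all genes in PSN-1 and 9.49% in MIA PaCa-2. Among the other lists, 2 of 44 other adhesion genes (4.55%) were past it in PSN-1, both lower with the mimic, and 6 of 37 (16.2%) in MIA PaCa-2, 5 of them higher. Matrix ligands were past it in 4 of 22 genes (18.2%) in PSN-1 and in 2 of 14 (14.3%) in MIA PaCa-2, and other integrin subunits in 0 of 4 and 0 of 2. No gene of these lists was past 1.5-fold in the same direction in both lines. Of all 10678 genes compared in both, 80 were past it as higher in both and 65 as lower in both.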

How the data were processed

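RNA from 4 cultures was sequenced, with 1 library per group. Per the labels' protocols, the RNA came from a miRNeasy Micro kit and the libraries from a TruSeq stranded mRNA kit. The authors deposited 1 FPKM value for each gene symbol and library, as the file headers show. TopHat2 2.1.1, Cuffdiff 2.2.1 and the build hg19 stand in the submitters' processing notes, without their roles. Neither annotation nor strand setting is given in the sources used here. FPKM depends on the library total, so abundant genes can move all others.

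The 31 genes and all lists were chosen with earlier results of these data known. Log2 values used a pseudocount of 1 FPKM, which understates changes of low genes. Within a line, genes with a mean of 1 FPKM or more in that line were compared with no test. Across libraries limma 3.58.1 (R 4.3.3, eBayes with trend, 1 residual degree of freedom, checked on simulated data) was fitted with line and oligonucleotide, for genes averaging 1 FPKM in each line (mimic) or over the 4 libraries (line), with Benjamini-Hochberg adjustment over all of them at 0.05. The simulated libraries had independent noise of the kind limma assumes. That check therefore does not cover libraries of a line that are not replicates. Tables were made with Python 3.11.15, numpy 2.4.6 and pandas 2.3.3, and figures with matplotlib 3.10.9.

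Depth was estimated from low FPKM values of single-transcript genes, which fall on steps of whole fragments, assuming fragments of 200 bases. Between 44.7% and 49.4% of the low values lay within 1% of 1 to 4 fragments, so the depth is approximate. A transcript of 2 kb at 5 FPKM then has 126 to 159 fragments. Counting errors cover counting only.

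Values of all libraries were given for genes past 1.5-fold in a line, subunits at 5 FPKM or more, the 3 largest called line differences of each role and the ends of each role's range; further values were added after they were seen. Of the other lists, the 4 largest called line differences were named. Marker lists not described with the results were those of platelets, at most 0.842 FPKM in sum, and of acinar and islet cells, at 17.7 and 21.4 FPKM in PSN-1 and 0 in MIA PaCa-2. Most of that PSN-1 sum was PRSS1, at 17.41 and 20.55 FPKM with mimic and scramble. CPA1 was under 1 FPKM there, and CELA3A, INS and GCG were at 0 in every library. Coordinates are GRCh38 from GENCODE 29 and RefSeq, matched by symbol, and were not converted to the build of the files.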

Additional observations from a re-analysis of the deposited data

Results flagged for a closer look

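For 3 genes the mimic and scramble libraries differed in opposite directions in the 2 lines, each by more than 1.96 counting errors. Opposite directions of any size were common, with 4722 of all 10678 genes compared in both lines, against 5 of the 24 adhesion genes. The share of all genes past 1.96 counting errors in this way was not worked out. The log2 difference of ITGB5 was -0.45 in PSN-1 and 0.39 in MIA PaCa-2. For ZYX it was -0.10 in PSN-1 and 0.40 in MIA PaCa-2, and for ACTN1 -0.14 in PSN-1 and 0.25 in MIA PaCa-2. The difference between the lines was not tested, since 1 library per group leaves no degrees of freedom for it.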

How the results depend on the processing

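With 1 library per group, precision is limited by the number of libraries, and genes near 0 by depth. The labels give no replicate numbers, so libraries were paired only by line. The number of the 31 genes past 1.5-fold in PSN-1 was 1 with a pseudocount of 5 (TNS3; FERMT1 was at -0.47) and 0 at 2-fold. In MIA PaCa-2 it was 4 with a pseudocount of 0.1 (ACTN4, CAV1, ITGB1 and TLN2), 1 with a pseudocount of 5 (ACTN4) and 0 at 2-fold. TPM scaling kept 2 in MIA PaCa-2, with CAV1 past the threshold and ITGB1 at 0.54. The limma count for the mimic was 0 under each alternative run, including no block for the cell line. The limma count between the lines was 21 to 24 under other pseudocounts, filters, scalings and models, and 9 to 17 without 1 library: 9 without PSN-1 mimic, 10 without PSN-1 scramble, 16 without MIA PaCa-2 mimic and 17 without MIA PaCa-2 scramble. TNS3 lost its call with line as the only term. The fits without 1 library also had line as the only term. Fewer samples enter them, and other causes of the lower counts were not tested. Genes that were not called turned sign in them: as PSN-1 over MIA PaCa-2, FERMT2 ran from -0.092 to 0.19, PTK2 from -0.19 to 0.10, ACTN4 from -0.017 to 0.59 and TLN2 from -0.29 to 0.12. With all subunit genes in the sum, the ITGA3 share was 40.7% and 38.6% in PSN-1 with mimic and scramble and 68.1% and 67.5% in MIA PaCa-2.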

Other observations

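MET, the hepatocyte growth factor receptor gene 413.6 kb from TES, was read only because it neighbours TES and CAV1. It had 19.9 FPKM with mimic and 7.45 with scramble in PSN-1, and 6.02 FPKM with mimic and 2.69 with scramble in MIA PaCa-2. It was higher with the mimic in both lines, and it was singled out after its values were seen. CRK, an adaptor that binds paxillin and p130Cas, had 12.9 FPKM with mimic and 8.72 with scramble in PSN-1, and 42.1 FPKM with mimic and 21.9 with scramble in MIA PaCa-2. TGFB1I1, encoding the paxillin relative Hic-5, had 23.7 FPKM with mimic and 24.4 with scramble in PSN-1, and 26.0 FPKM with mimic and 12.4 with scramble in MIA PaCa-2. These genes were likewise chosen after their values were seen. For mimic against scramble over both lines, CRK and TGFB1I1 did not pass (adjusted p = 0.257 and 0.616 with limma). Of all 10678 genes compared in both lines, 28.1% were higher with the mimic in both, and 80 were past 1.5-fold as higher in both.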
